A study of Bos taurus and Ovis aries and Capra hircus with 9 samples.

Results

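Liver mRNA of 3 cattle was compared with liver mRNA of 3 goats, gene by gene, over genes that could be paired between the annotations of the species. A pair had to be each other's best match by the ordered lengths of internal exons, with at least 2 exons and 50% of the shorter exon list matched and with at least 2 neighbouring pairs within 10 places in both genomes. Of 27607 annotated cattle genes and 27271 annotated goat genes, 10992 were paired in this way. The comparison was then restricted to the 6085 pairs whose annotated exon length (Length, the summed exon bases of a gene) differed by at most 1.5-fold, because a longer annotation collects more reads, and 5020 of these passed the filter on low counts.

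The libraries came from a study of liver in 3 ruminants with 9 libraries, of which the 6 of cattle and goats are described here. The animals were healthy adult Holstein cattle and Yunnan black goats, with 1 library per animal. According to the methods of the study the age range of the goats was lower than that of the cattle, and the sex was not given in the sources used here. Species, breed, age range and the assembly and annotation used for counting therefore change together between the groups and cannot be told apart. Diet and husbandry were not given either, and any difference in them could not be told apart from these. The tissue was taken after death and frozen, so that hepatocytes, bile duct cells, sinusoidal endothelium, stellate cells and immune cells entered each library together, and fewer cells of a type cannot be told apart from less RNA per cell.

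The liver makes most of the proteins of blood plasma, among them albumin, clotting factors and complement, and it raises the acute phase proteins when interleukin signals arrive. In ruminants the rumen ferments carbohydrate to short fatty acids, and the liver makes most of the glucose of the animal from propionate and other precursors. It also oxidises fatty acids, exports lipoproteins, makes bile acids and clears foreign compounds, with cytochromes P450, conjugating enzymes and membrane transporters as the working parts.

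The cattle libraries held 47996593 to 61105490 counts on genes and the goat libraries 35647106, 22921767 and 16507706, for goats A, B and C in that order. Mitochondrial genes took 9.6% to 10.8% of the counts in cattle and 1.1% to 3.7% in goats. The Spearman correlation of gene levels between libraries was 0.971 to 0.983 within cattle, 0.887 to 0.950 within goats and 0.686 to 0.820 between the species. Goat C stood apart in scale, with a trimmed mean of M-values (TMM) factor of 1.49 against 0.89 to 1.0 in the other 5 libraries. The summed level of the hepatocyte markers of like Length (APOB, SERPINA1 and ASGR1) was 5512 to 7512 TMM-normalized CPM (counts of a gene relative to the scaled library size) in cattle and 6688 to 11513 CPM in goats, so the markers of liver parenchyma were present in every library. ASGR1, a receptor subunit that clears glycoproteins, was the called gene of the 3 and was lower in cattle (log2 -0.99 ± 0.32). Symbols are not paired with identifiers in the count files. They were inferred by matching gene spans, the distances to neighbours and the gene order with a RefSeq list of another cattle assembly, and 4120 of the 5020 tested genes received one.

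A gene was called when its adjusted p was under 0.05 in edgeR's quasi-likelihood test, with the Benjamini-Hochberg adjustment over all 9243 shared genes tested. Of the 5020 genes of like Length, 2419 were called (48.2%), 1119 of them higher in cattle (22.3%) and 1300 lower in cattle (25.9%). For 2378 of the called genes (47.4% of those tested) the 3 cattle and the 3 goats did not overlap. Differences over 2-fold were called for 902 genes that were higher and 1130 genes that were lower in cattle (40.5% of those tested), and differences over 4-fold for 312 and 528 genes (16.7%). The median log2 fold change of cattle over goat across the 5020 genes was -0.11, and the median of its size was 0.87.

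The restriction on Length changed the picture of the shared genes. Among the 4223 tested genes over 1.5-fold apart in Length 56.7% were called, against 52.1% of all 9243, and the median log2 fold change ran from -1.06 for the 198 genes over 3-fold longer in goat to 1.11 for the 438 genes over 3-fold longer in cattle. Over the 3087 genes closest in Length the median was -0.10. The Spearman correlation of the fold change with the log ratio of Length, across genes that are not independent replicates, was 0.41 over genes apart in Length and 0.08 over genes of like Length. The genes close to the limit on either side were similar in this respect, with a median of -0.17 and 51.5% called at ratios from 1.4 to 1.5, and a median of -0.21 and 53.4% called at ratios from 1.5 to 1.6. The 508 genes of like Length at the end where goat was the longer kept a median of -0.48.

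The genes with the largest called differences were named among those with at least 10 counts in every library, a mean of at least 10 CPM in a species, little exon overlap with another gene and no overlap between the species. Highest in cattle by fold was SLC27A4, a fatty acid transport protein, on cattle chromosome 11 (chr11:98945593-98959912, ARS-UCD1.2). It stood at 225, 264 and 114 CPM in cattle A, B and C and at 2.30, 2.04 and 1.97 CPM in goats A, B and C. The lowest cattle library was far above the highest goat library, and the fitted difference was 95.1-fold (log2 6.57 ± 0.42 SE, edgeR adjusted p = 5.47e-05). CDH11, a cadherin of mesenchymal cells, was at 91.5, 108 and 158 CPM in cattle and at 2.25, 1.39 and 2.23 CPM in goats (log2 5.92 ± 0.36, edgeR adjusted p = 5.28e-05). The goats formed a narrow low group for both genes.

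GPNMB, a membrane glycoprotein of macrophages and other lysosome-rich cells, was at 164, 210 and 227 CPM in cattle. In goats A and B it was at 0.57 and 1.31 CPM and in goat C at 13.2 CPM, so the size of the difference depended on goat C (log2 5.32 ± 1.1, edgeR adjusted p = 0.00374, and 7.78 without goat C). GINS1, a subunit of the replicative helicase complex, was higher in cattle by a log2 of 4.71, RGS16, which shortens G protein signals, by 4.64, and HSPA13, a member of the heat shock protein 70 family, by 4.36. The remaining members of this set were FNDC4, ZNF385B, NT5DC1 and CARMIL3. CARMIL3, a regulator of actin capping, rested on 1 cattle library, since cattle B was at 87.8 CPM against 6.09 and 4.68 CPM in cattle A and C and 0.67, 1.17 and 2.56 CPM in the goats. Its log2 fold change was 4.50 with all libraries and 1.87 without cattle B.

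The 10 genes named as lowest in cattle differed by larger folds than the 10 named as highest. The rule of at least 10 counts allows larger folds in this direction, since a count is worth more CPM in the shallower goat libraries. It left out genes on both sides, such as SLC51A (log2 8.45) and KANK4 (log2 -8.98). SLC47A2, a proton-coupled exporter of organic cations and drugs, was at 0.36, 0.85 and 0.72 CPM in cattle and at 235, 296 and 199 CPM in goats, a 374-fold difference (log2 -8.54 ± 0.45, edgeR adjusted p = 3.32e-05). The goats lay close together and the cattle were near the lower end of detection. ANO9, an anoctamin of the cell membrane, was at 0.52 to 1.03 CPM in cattle and at 88.1, 119 and 115 CPM in goats (log2 -7.23 ± 0.38). MAPK13, the delta form of the p38 kinases, was at 0.55 to 0.69 CPM in cattle and at 46.0, 73.7 and 58.3 CPM in goats (log2 -6.58 ± 0.32). None of these groups overlapped, as the rule for naming required.

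MIOX, which opens the ring of myo-inositol in the first step of its breakdown, was at 6.99, 5.05 and 2.72 CPM in cattle and at 188, 238 and 434 CPM in goats (log2 -5.86 ± 0.53, edgeR adjusted p = 0.00015). CYP2S1, a cytochrome P450, was at 0.74 to 1.35 CPM in cattle and at 63.9, 34.7 and 64.1 CPM in goats (log2 -5.65 ± 0.39). CFAP70, a protein of cilia, was lower in cattle by a log2 of -6.20 and SH2D4A, an SH2 domain adaptor, by -5.84. LRIG3, NUF2 and MTARC1 had goat groups that were wide relative to their means. NUF2, a subunit of the kinetochore complex that holds chromosomes to the spindle, was at 11, 61.1 and 110 CPM in goats A, B and C and at 0.89, 2.05 and 1.13 CPM in cattle. Even goat A, the lowest goat, was above every cattle library, and its fold change was -4.73 without goat C and -5.96 without goat A.

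**Figure D1:**
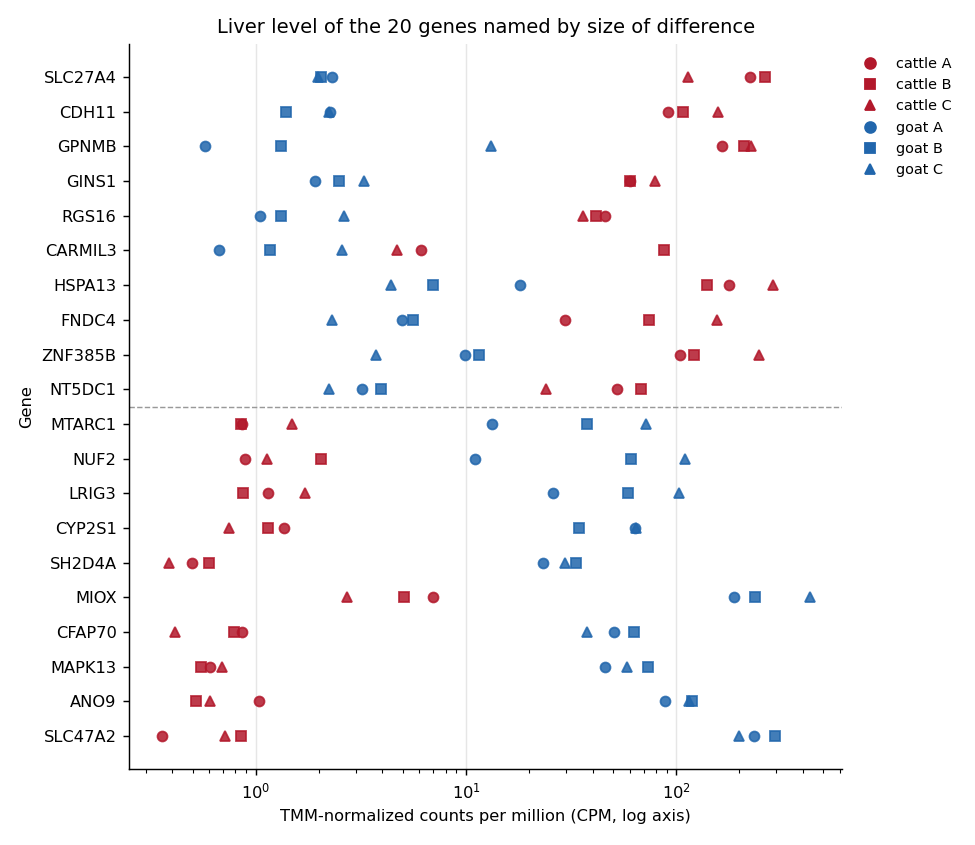
TMM-normalized CPM (log axis) of the 10 genes with the largest called difference in each direction, higher in cattle above the dashed line and lower in cattle below it, with 1 point per library (red cattle, blue goat, shape by replicate letter). The species do not overlap for any of the 20 genes, which was a condition for naming them. CARMIL3 in cattle B and GPNMB in goat C stand away from the other libraries of their species.

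Some genes of like Length had no count in 1 species at all, 10 in the 3 goats and 14 in the 3 cattle. These were not eligible for the set above and were chosen after their values were seen. TREH, the trehalase that splits trehalose to glucose, averaged 138 CPM in cattle with 0 counts in every goat, which is at least 629-fold higher when 3 counts in goat B, the goat library in which 3 counts are worth the most CPM after scaling, are taken as the floor. MICOS13, a small subunit of the complex that shapes mitochondrial cristae, averaged 27.2 CPM in cattle and was also at 0 counts in the goats (at least 124-fold higher). A count of 0 covers the annotated exons of that species only.

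Lists of liver pathways and of cell markers were used to describe the middle of the range. Over all tested genes 22.3% were higher and 25.9% were lower in cattle, and the counts of the lists are read beside these shares. Of the 15 genes of fatty acid oxidation and ketone body synthesis, 10 were tested at like Length, of which 2 were higher and 1 was lower in cattle, below the 48.2% called among all tested genes, with a median log2 fold change of 0.27 against -0.11 over all tested genes. CPT2, the inner membrane carnitine palmitoyltransferase, was at 263, 274 and 226 CPM in cattle and at 97.9, 102.9 and 53.0 CPM in goats (log2 1.59 ± 0.32, edgeR adjusted p = 0.00425). ACAA2, the mitochondrial thiolase, moved the other way, at 500, 459 and 322 CPM in cattle and at 1932, 2309 and 936 CPM in goats (log2 -2.01 ± 0.45, edgeR adjusted p = 0.00637). CPT1A, which controls the entry of fatty acids into mitochondria, had a log2 fold change of 0.00 ± 0.34 and was not called.

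In lipid synthesis FASN, the fatty acid synthase, was the called gene among 5 tested and was lower in cattle, at 35.3, 27.6 and 18.5 CPM against 53.1, 61.9 and 48.4 CPM in goats (log2 -1.01 ± 0.28, edgeR adjusted p = 0.0167). None of the 4 tested genes of cholesterol synthesis (MVK, FDFT1, SQLE and SREBF2) and none of the 5 tested plasma carriers and apolipoproteins (APOB, TF, SERPINA1, SERPINA6 and GC) was called by edgeR, with medians of 0.17 and -0.28, and 0 of the 9 had an unadjusted p under 0.05 while DESeq2 called 1 carrier as lower. Of the mitochondrial respiratory chain 9 nuclear subunits were tested and 0 were called by edgeR (1 at an unadjusted p under 0.05 and 1 by DESeq2, as higher), with log2 fold changes from -0.46 for SDHB to 1.07 for NDUFS1. PCK2, the mitochondrial phosphoenolpyruvate carboxykinase, was lower in cattle, at 249, 307 and 180 CPM against 610, 646 and 434 CPM (log2 -1.20 ± 0.34, edgeR adjusted p = 0.0183). No gene of the urea cycle could be compared at like Length.

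Of 4 tested genes of bile acid synthesis and transport 2 were called, close to the 48.2% called among all tested genes, and were lower in cattle. These were ABCG5 and ABCG8, half-transporters that pair to export sterols into bile. ABCG8 was at 11.8, 5.87 and 2.06 CPM in cattle and at 132, 129 and 96.4 CPM in goats (log2 -4.18 ± 0.58, edgeR adjusted p = 0.000842). ABCG5 was at 4.85, 5.71 and 2.81 CPM in cattle and at 30.4, 26.6 and 10.6 CPM in goats (log2 -2.34 ± 0.46). The groups did not overlap for either gene, although goat C was the lowest goat for both. ABCB4 and CYP27A1, the other bile genes tested, were not called (log2 -0.12 ± 0.33 and -0.67 ± 0.45).

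Of 4 tested genes of xenobiotic metabolism 2 were called, close to the 48.2% called among all tested genes, and were lower in cattle. CYP2E1, the ethanol-inducible P450, was at 2530, 1146 and 217 CPM in cattle and at 15675, 11814 and 4097 CPM in goats (log2 -3.02 ± 0.90, edgeR adjusted p = 0.0221), with a wide range in both species and no overlap. NR1I3, the nuclear receptor CAR, was at 45.1, 32.3 and 12 CPM in cattle and at 119, 151 and 149 CPM in goats (log2 -2.23 ± 0.45). In amino acid breakdown BHMT, which methylates homocysteine from betaine, was higher in cattle, at 3305, 2461 and 1843 CPM against 448, 216 and 592 CPM (log2 2.60 ± 0.50, edgeR adjusted p = 0.00323). PRODH2, the hydroxyproline dehydrogenase, was lower in cattle, at 12.1, 2.73 and 7.92 CPM against 49.6, 60.1 and 39.5 CPM (log2 -2.72 ± 0.49).

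Of 9 coagulation genes 2 were higher and 2 were lower in cattle, shares close to the 22.3% higher and 25.9% lower of all tested genes. FGG, the gamma chain of fibrinogen, was at 56551, 47626 and 78957 CPM in cattle and at 15539, 14926 and 7246 CPM in goats (log2 2.28 ± 0.57, edgeR adjusted p = 0.01). F5, a cofactor of the prothrombin-activating complex, was at 1553, 1353 and 2115 CPM in cattle and at 874, 894 and 389 CPM in goats (log2 1.22 ± 0.44). PROC, the anticoagulant protein C, was lower in cattle, at 401, 253 and 279 CPM against 1593, 1787 and 1399 CPM (log2 -2.36 ± 0.37, edgeR adjusted p = 0.00132). KLKB1, plasma prekallikrein, was lower by a log2 of -1.90 ± 0.41.

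Of 10 complement genes 8 were not called, and C2 (log2 -1.89 ± 0.49) and MASP1 (log2 -0.99 ± 0.30) were lower in cattle. That share is below the 48.2% called among all tested genes. C2 is a protease of the classical pathway and MASP1 a protease of the lectin pathway. Of 4 acute phase genes of like Length 2 were called, close to the 48.2% called among all tested genes, and were higher in cattle. LBP, which hands bacterial lipopolysaccharide to its receptors, was at 5013, 4737 and 7597 CPM in cattle and at 956, 329 and 108 CPM in goats (log2 3.64 ± 0.79, edgeR adjusted p = 0.00575). HP, haptoglobin, ranged in goats from 11098 CPM in goat A to 582 CPM in goat C and was at 26793 to 47044 CPM in cattle (log2 2.83 ± 0.95, edgeR adjusted p = 0.0345). ITIH3 and IL6ST were not called (log2 -0.63 ± 0.39 and 0.08 ± 0.35).

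Genes of the interferon response were lower in cattle for 3 of 5 tested members, beside 25.9% of all tested genes. PSMB8, a subunit of the immunoproteasome, was at 29.2, 16.9 and 16.0 CPM in cattle and at 121, 79.2 and 205 CPM in goats (log2 -2.71 ± 0.42, edgeR adjusted p = 0.00125). TAP1, which carries peptides for antigen presentation, was at 25.6, 18.1 and 14.7 CPM in cattle and at 69.9, 42.6 and 117 CPM in goats (log2 -1.98 ± 0.40). IFIH1, a sensor of viral RNA, was lower by a log2 of -1.04 ± 0.30. IRF7, a transcription factor of the response, was not called (log2 -1.01 ± 0.62). Goat C was the highest goat for all 5, and the fold changes of PSMB8 and TAP1 came from goats that were all above the cattle.

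Some markers of other cell types differed between the species, and the summed levels overlapped for most types. KRT19 and CFTR, the tested markers of bile duct cells, were both lower in cattle (log2 -1.83 ± 0.33 and -1.56 ± 0.33), and their summed level was 13.2 to 18 CPM in cattle and 37.7 to 67.1 CPM in goats. Of 4 macrophage markers MARCO and TIMD4 were lower in cattle (log2 -1.61 ± 0.56 and -2.01 ± 0.39) and CD68 and CSF1R were not called, with sums of 205 to 541 CPM in cattle and 513 to 927 CPM in goats. CD4, the tested marker of T cells, was at 2.40 to 3.46 CPM in cattle and 6.57 to 14.2 CPM in goats (log2 -1.81 ± 0.38). VWF was the called gene of 4 endothelial markers (log2 -2.12 ± 0.36), with sums of 379 to 458 CPM in cattle and 161 to 509 CPM in goats. PDGFRB, the called gene of 3 stellate cell markers, was higher in cattle (log2 1.81 ± 0.34), and the sums of 90.5 to 137 CPM in cattle and 61.1 to 128 CPM in goats overlapped. The part of these cell types in the differences of the immune and transporter genes was not tested.

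Core clock genes differed in opposite directions. ARNTL, which encodes the activator BMAL1, was at 37.7, 35.2 and 38.2 CPM in cattle and at 12.6, 10.7 and 13.9 CPM in goats (log2 1.58 ± 0.22, edgeR adjusted p = 0.000848). CLOCK, its partner, was at 8.73, 19.4 and 18.5 CPM in cattle and at 4.35, 2.7 and 2.43 CPM in goats (log2 2.29 ± 0.41). PER2, a repressor in the same loop, was at 7.98, 5.27 and 4.43 CPM in cattle and at 16.8, 16.8 and 32.3 CPM in goats (log2 -1.90 ± 0.37). CRY1 was not called (log2 -0.60 ± 0.33). The hour of collection is not given in the labels, and its part in these differences was not tested.

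In iron and haem handling both tested genes were lower in cattle, beside 25.9% of all tested genes. ALAS1, the first enzyme of haem synthesis, was at 130, 79.4 and 123 CPM in cattle and at 663, 354 and 322 CPM in goats (log2 -2.01 ± 0.39, edgeR adjusted p = 0.00349). TFR2, the transferrin receptor of the liver iron sensor, was lower by a log2 of -1.25 ± 0.34. Of 2 tested liver transcription factors 1 was higher and 1 was lower in cattle, the lower one being ESRRA, an estrogen-related receptor (log2 -0.68 ± 0.24). IGFBP1 and JAK2 of the growth hormone axis and HSPH1, HSPA8 and FOSB of the stress response were not called by edgeR or DESeq2. The remaining marker lists, for B cells, proliferating cells, muscle, and pancreas and fat, held 1 to 3 tested genes each and no called gene by edgeR, with 2 B cell genes past an unadjusted p of 0.05 and called by DESeq2, and neutrophil and red cell markers could not be compared at like Length.

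**Figure D2:**
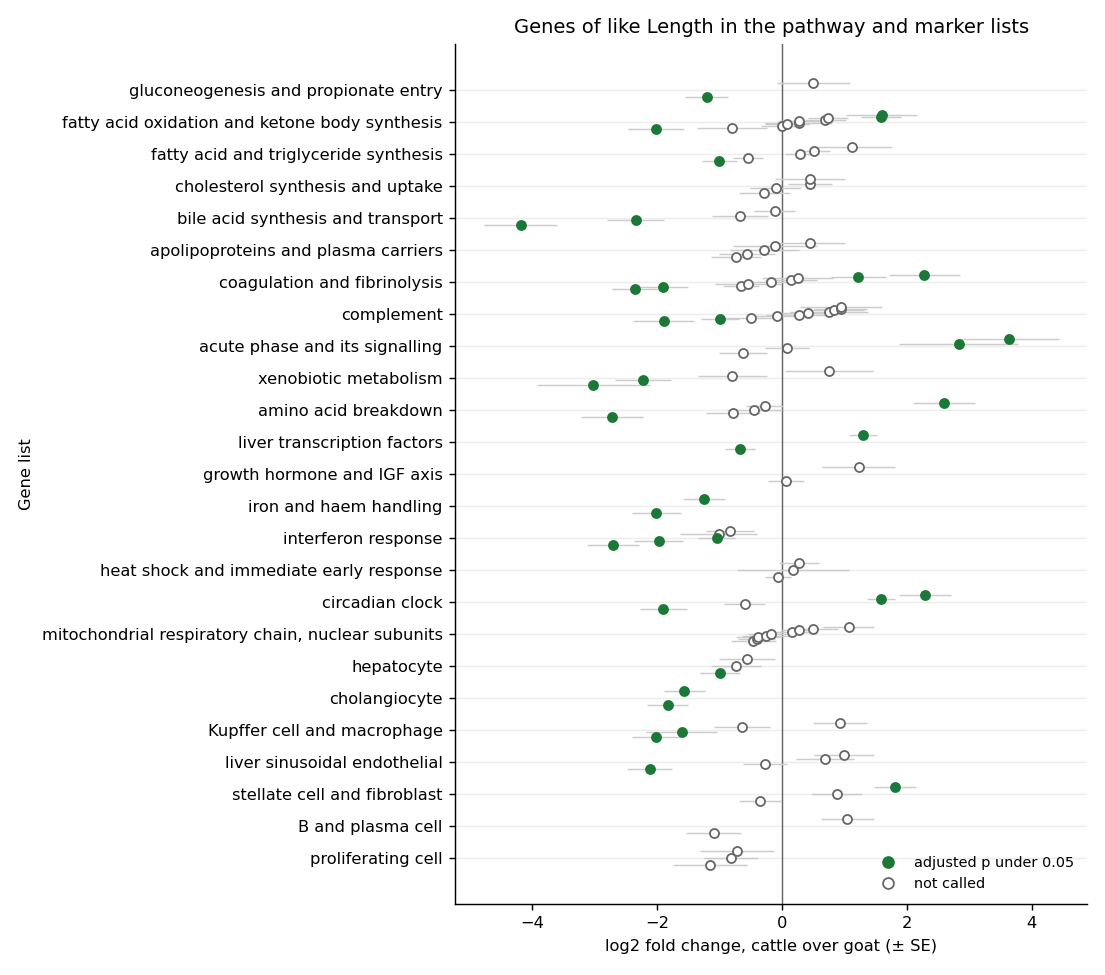
Log2 fold change of cattle over goat with its SE for each tested gene of like Length in the lists with at least 2 such genes, filled where the edgeR adjusted p was under 0.05 and open where it was not. The respiratory chain, cholesterol and plasma carrier lists hold open points around 0, while the sterol exporters of the bile list and the bile duct markers lie to the left.

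Families defined by the start of the symbol were added after the values were seen, and they are given as counts beside the 22.3% higher and 25.9% lower of all tested genes. Of 24 genes for cilia and flagella 15 were lower and 3 were higher in cattle, with a median log2 fold change of -1.94. ODAD1, a docking protein of outer dynein arms, was at 0.11 to 0.25 CPM in cattle and at 15.3, 16.3 and 20.1 CPM in goats, and CFAP251 was at 0.04 to 0.14 CPM in cattle and at 4.02, 9.19 and 19.6 CPM in goats. IFT140, of the retrograde transport complex in cilia, was at 1.07 to 1.75 CPM in cattle and at 10.8, 13.9 and 16.8 CPM in goats (log2 -3.23 ± 0.36). The dynein heavy chain genes went both ways, with DNAH11 lower and DNAH12 and DNAH17 higher in cattle (log2 -5.93, 3.45 and 2.84).

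Of 20 genes whose symbols start with EIF, most of them factors that start translation, 10 were higher and 0 were lower in cattle by edgeR (1 lower at an unadjusted p under 0.05 and 1 by DESeq2), with a median of 0.80, which was 0.50 with Length as an offset. EIF4A1, the helicase that opens the ends of mRNA, was at 793, 752 and 920 CPM in cattle and at 191, 214 and 244 CPM in goats (log2 1.92 ± 0.32). EIF3A, EIF3D, EIF3I and EIF3J, subunits of the factor that joins mRNA to the small ribosomal subunit, were higher by log2 values of 1.21, 0.93, 1.58 and 1.85. EIF2AK2, EIF2AK3 and EIF2AK1, which are kinases of an initiation factor and not factors themselves, were also among the 10, with EIF2AK2 at 68.3, 113 and 97.0 CPM in cattle and 16.6, 6.28 and 24.1 CPM in goats. Of 10 RNA polymerase subunits 4 were higher and 0 were lower by edgeR (1 lower at an unadjusted p under 0.05 and 1 by DESeq2), and of 17 nucleoporins 7 were higher and 3 were lower.

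Transporters were close to the level of all genes in count. Of 84 solute carriers 21 were higher and 24 were lower (median -0.16), and of 25 ABC transporters 5 were higher and 8 were lower (median -0.45). With Length as an offset these medians were -0.31 and -0.70, and that of all tested genes went from -0.11 to -0.21. ABCC3, an exporter of conjugated compounds to blood, was at 3.52 to 5.27 CPM in cattle and at 42.1, 32.8 and 42.1 CPM in goats (log2 -3.25 ± 0.28). ABCC5 was at 10.8 to 19.7 CPM in cattle and at 113, 274 and 678 CPM in goats A, B and C (log2 -4.41 ± 0.67). Few cytochromes P450 and conjugation enzymes were tested, and they were grouped by symbol and not by a part in drug handling. Of 8 cytochromes P450 (median -2.16) 0 were higher by edgeR, at an unadjusted p under 0.05 or by DESeq2, and 4 were lower. The share called, 50%, was close to the 48.2% called among all tested genes. CYP26A1, which degrades retinoic acid, was among the 4, at 23.6, 9.55 and 4.43 CPM in cattle and 240, 66.5 and 34.9 CPM in goats. Of 2 conjugation enzymes tested 2 were lower.

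Integrins, the receptors for matrix and for cell contact, were called in 11 of 12 tested genes, 7 higher and 4 lower in cattle. ITGA2, a collagen receptor subunit, was at 24.9, 35.4 and 50.4 CPM in cattle and at 1.58, 2.63 and 4.47 CPM in goats (log2 3.68 ± 0.45), and ITGB1, the shared beta subunit, was higher by 1.33 ± 0.33. ITGAD, ITGA2B, ITGB7 and ITGA5 were lower, with ITGA2B resting on goat C as described below. The proteasome with 5 higher and 5 lower of 21, the mitochondrial ribosome with 3 and 6 of 21 and the Rab GTPases with 2 and 2 of 5 had no preferred direction in count, and the sign of the proteasome median of 0.20 changed to -0.00 with Length as an offset.

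Neighbourhoods were described as windows of 10 consecutive tested genes of like Length in cattle order, with all goat partners on 1 goat chromosome. There were 4583 such windows, and 90% of their medians lay between a log2 of -1.01 and 0.75. The 6 windows named below span 18 to 32 shared genes, so paired genes that were not tested at like Length lie among the listed ones. These windows were chosen as the extremes of the medians, so their counts in the direction of the median follow in part from that choice. Over all tested genes 22.3% were higher and 25.9% were lower in cattle. The highest median, 2.30, belonged to a stretch of cattle chromosome 3 (chr3:1280068-7846132, ARS-UCD1.2) in which 6 genes were higher and 2 were lower in cattle. UAP1, which makes UDP-N-acetylglucosamine, was at 356, 337 and 462 CPM in cattle and at 75.3, 80.6 and 47.4 CPM in goats. ATF6, a sensor of unfolded protein in the endoplasmic reticulum, was at 69.4, 117 and 146 CPM in cattle and at 26.4, 8.03 and 6.31 CPM in goats (log2 3.02 ± 0.57). POU2F1, RXRG, HSD17B7 and UHMK1 were higher too, although RXRG overlapped between the species and UHMK1 shares 17.9% of its goat exons with another gene. NUF2 and CCDC190 within the same stretch were lower in cattle.

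The next highest median, 1.6, lay on cattle chromosome 18 (chr18:36121354-39165547), where all 10 genes were above 0 and 6 were called. Its last 3 genes followed each other among the tested genes of like Length, in this order. HP came first, DHODH, the mitochondrial enzyme of pyrimidine synthesis, followed at 191, 351 and 326 CPM in cattle and 48.0, 31.3 and 28.8 CPM in goats (log2 3.0 ± 0.36), and PKD1L3 was at 124, 171 and 117 CPM in cattle and 16.2, 26.3 and 31.4 CPM in goats (log2 2.48 ± 0.32). Goat C, which had the least HP of the goats, had the most PKD1L3 of them. The third, with a median of 1.57, lay on chromosome 1 (chr1:58619102-65096582), with 7 genes higher and 0 lower by edgeR, at an unadjusted p under 0.05 or by DESeq2. It contained the longest row of consecutive called genes that were higher in cattle, 6 genes with IGSF11, B4GALT4, ARHGAP31 and TMEM39A among them. The libraries did not overlap between the species in any of the 6, as in 2378 of all 2419 called genes.

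The lowest median, -2.64, lay on another stretch of chromosome 3 (chr3:80586058-86718004), where 8 of 10 genes were lower and 0 were higher in cattle by edgeR (1 at an unadjusted p under 0.05 and 1 by DESeq2). KANK4 was at 0.00 to 0.11 CPM in cattle and at 22.5, 24.7 and 35.0 CPM in goats, and FGGY, a carbohydrate kinase, was at 17.6, 13.4 and 7.01 CPM in cattle and 121, 84.5 and 34.5 CPM in goats. RAVER2, CACHD1, UBE2U and PATJ were also lower, and ALG6 and USP1 were not called.

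The other low windows were on chromosome 18. In chr18:56713476-62190012 the median was -2.14, with 6 genes lower and 1 higher. SYT3, a calcium sensor of vesicle fusion, was at 0.11 to 1.28 CPM in cattle and at 29.9, 27.5 and 20.5 CPM in goats (log2 -5.21 ± 0.69). In chr18:54837596-55471328 the median was -2.04 and the genes went strongly both ways, 5 lower and 3 higher. CA11, a carbonic anhydrase relative, was at 0.14 to 0.28 CPM in cattle and 35.9, 41.1 and 28.2 CPM in goats, with 18.6% of its cattle exons under another gene. GRWD1, a ribosome assembly factor, was at 63.8, 69.8 and 65.0 CPM in cattle and 14.2, 9.70 and 9.79 CPM in goats (log2 2.56 ± 0.25), and NTN5, a netrin relative, was at 7.26 to 21.4 CPM in cattle and at 0 counts in the goats (at least 68.4-fold higher).

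**Figure D3:**
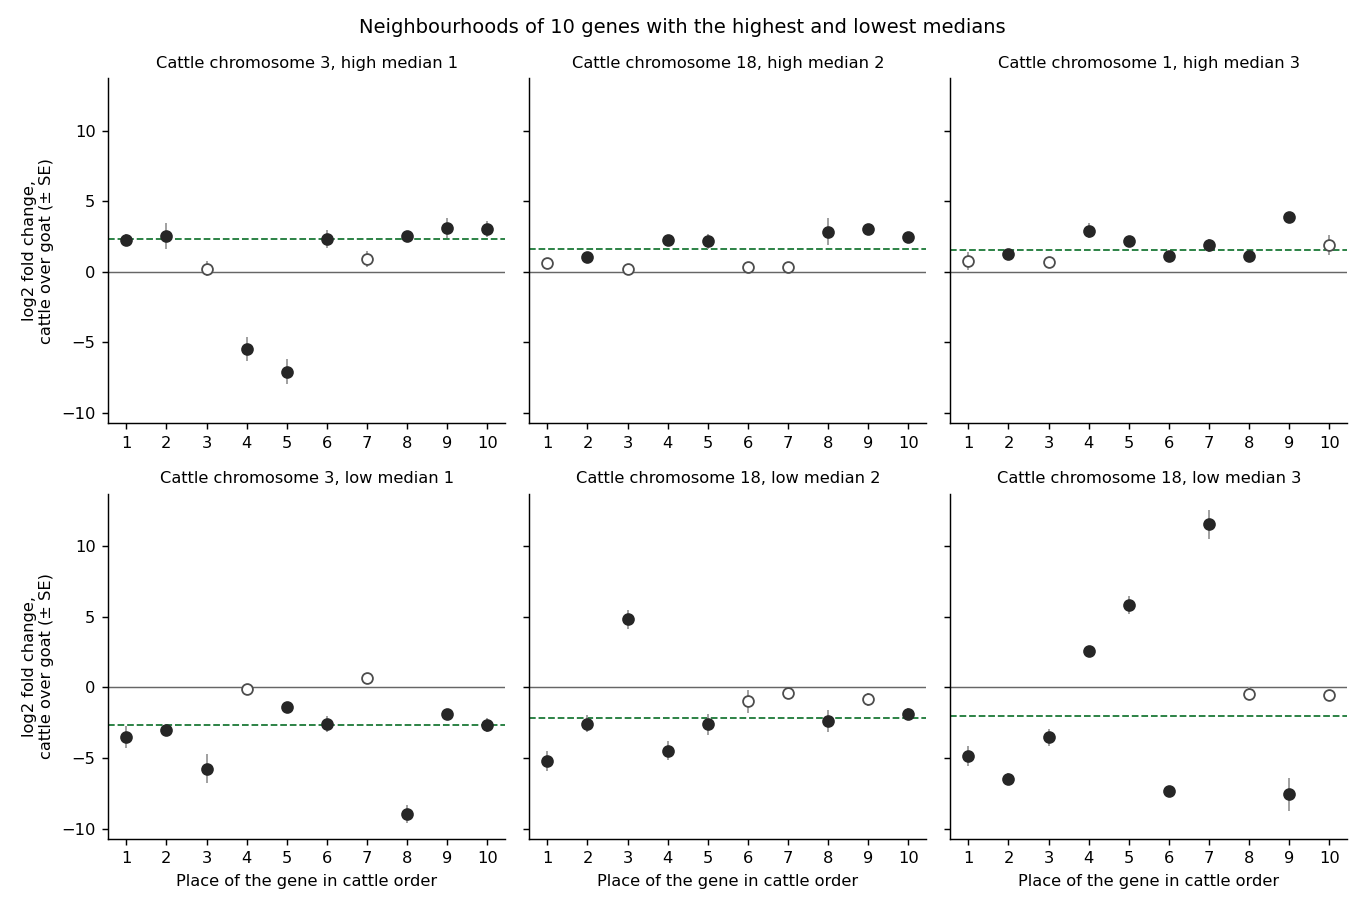
Log2 fold change of cattle over goat with its SE for the 10 genes of each window, numbered in cattle order, filled where the edgeR adjusted p was under 0.05, with the window median dashed. Windows with high medians are above and windows with low medians below. For genes at or near 0 counts in a species the plotted value depends on the prior count of the fit.

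The longest row of called genes in 1 direction held 8 genes that were lower in cattle, on chromosome 3 (chr3:117020666-120389112). All 8 were without overlap between the species, as were 2378 of all 2419 called genes. Most of the 8 were modest in size, such as PPP1R7 and ILKAP, a regulator of a protein phosphatase and a phosphatase, at log2 -0.81 ± 0.24 and -0.83 ± 0.24. RNPEPL1, an aminopeptidase, was at 76.9, 63.1 and 53.8 CPM in cattle and at 202, 185 and 158 CPM in goats (log2 -1.49 ± 0.26). CAPN10, a calpain protease, was lower by -1.36 ± 0.29 and TRAF3IP1, a cilia protein, by -0.97 ± 0.29. MAB21L4 was at 0.00 to 0.05 CPM in cattle and at 9.85, 19.6 and 27.4 CPM in goats. PER2 belonged to the same row.

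Across the genome neighbours resembled each other weakly. Of 1165 pairs of adjacent tested genes that were both called 653 had the same direction (56.1%), against 402 of 808 pairs 50 places apart (49.8%), and the Spearman correlation of the fold changes was 0.07 and -0.00 over 4946 and 3418 pairs. Adjacent genes at most 10000 bases apart had the same direction in 60.8% of 199 pairs, and in 61.1% of 167 pairs when genes with over 10% exon overlap were left out. Of the 199 pairs, those on the same strand were at 62.8% of 78 pairs, head to head pairs at 61.1% of 36 and tail to tail pairs at 58.8% of 85. These pairs share libraries and genes and are given as a description.

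The cattle chromosomes differed in their medians. Chromosome 18 was lowest, with a median log2 fold change of -0.51 over 244 genes, 36.5% of them lower and 13.9% higher in cattle, and chromosomes 29, 7, 25 and 19 followed at -0.29, -0.27, -0.24 and -0.24. Among the highest were chromosome 20 at 0.14, chromosome 26 at 0.12 and chromosome 1 at 0.12, where 30.8% of 211 genes were higher and 18% were lower. With Length as an offset the median of chromosome 26 changed sign to -0.14. Their order was not stable, since the median of chromosome 20 was 0.05 without goat C and 0.03 without cattle C, where chromosome 1 was highest at 0.31 and 0.14. Over 30 chromosomes the median fell with the number of annotated genes per megabase, with a Spearman correlation of -0.77 that is a description over chromosomes measured in the same 6 libraries. Without goat C the correlation was -0.51, and it was -0.70 to -0.78 without any of the other 5 libraries. Chromosome 18 remained lowest in each of these 6 fits, with medians from -0.59 to -0.38. Base composition also varies between chromosomes, and its part was not tested.

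**Figure D4:**
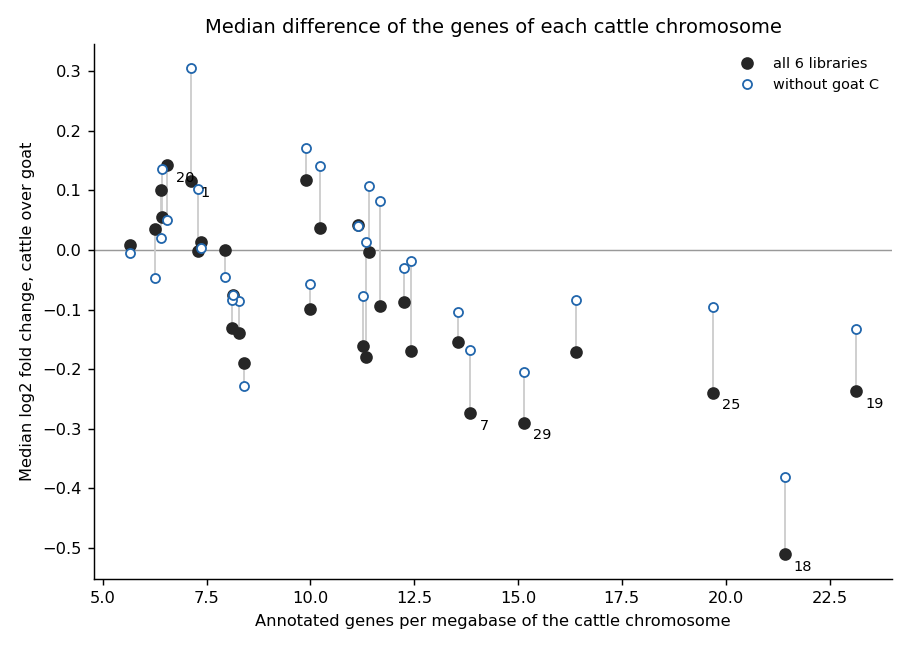
Median log2 fold change of cattle over goat for the tested genes of like Length on each of 30 cattle chromosomes, against the number of annotated genes per megabase, from all 6 libraries (filled) and without goat C (open), with a few chromosomes numbered. Gene-dense chromosomes 18, 19, 25 and 29 lie low, and most open points of gene-dense chromosomes lie above the filled ones.

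Each library was left out in turn to find the differences that rest on 1 goat. A called gene was said to rest on a library when its log2 fold change turned sign or kept under 50% of its size without it. Of the 2419 called genes 10 rested on a goat library, 8 of them on goat C, 1 on goat A and 1 on goat B, and 2 rested on a cattle library. None of the called genes turned sign in any of the 6 fits. All 8 genes that rested on goat C were lower in cattle, with goat C as the highest goat. The genes that rested on goats A and B were likewise lower in cattle with that goat highest. The rule favours this direction, since leaving out a high goat can move the goat mean further than leaving out a low goat. Differences that depend on a low goat are picked less readily. In all 6 fits without a library 1536 genes (63.5%) were called again, and in the 3 fits without a goat 1774.

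Named genes of this kind came from goats A and C. PIEZO1, a mechanically gated channel of endothelium and red cells, was at 32.4, 31.1 and 20.7 CPM in cattle, 47.5 and 33.9 CPM in goats A and B and 112 CPM in goat C. Its log2 fold change was -1.20 with all libraries (edgeR adjusted p = 0.0471) and -0.54 without goat C. The call was lost without goat C and also without each of the 3 cattle libraries, where the edgeR adjusted p was 0.0798 to 0.144. ITGA2B, the platelet integrin subunit, was at 8.53 to 13.6 CPM in cattle, 14.5 and 19.5 CPM in goats A and B and 48.8 CPM in goat C, and its fold change went from -1.38 to -0.68. These genes did not overlap between the species, but goats A and B were close to the cattle.

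SP110, an interferon-inducible nuclear body protein, was at 11.5 to 16.6 CPM in cattle, 22.5 and 17.8 CPM in goats A and B and 47.1 CPM in goat C (log2 -1.04, and -0.51 without goat C). RHBDF1 had 27.1 CPM in goat C against 7.55 and 11.7 CPM in goats A and B, and LAYN had 41.3 CPM against 7.41 and 15.7 CPM. Without goat C their fold changes went from -1.31 to -0.64 and from -1.52 to -0.63, and goat A of LAYN lay among the cattle. ENPP5 rested on goat A, at 39.2 CPM there and 15.5 and 17.3 CPM in goats B and C against 10.8 to 13 CPM in cattle (log2 -1.04, and -0.49 without goat A). No gene with a symbol met the conditions for goat B.

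Calls moved more often than directions. Without goat A 144 calls were lost and 389 were gained, without goat C 236 were lost and 337 were gained, and without goat B 578 were lost and 35 were gained. Leaving out a cattle library lost 501, 756 and 696 calls for cattle A, B and C. Goat B was the library between the others in its group, since goats A and C had the lowest correlation of the goat pairs, 0.887, and goat B had 0.950 with goat A and 0.937 with goat C. Of the 337 genes gained without goat C, goat C was the lowest goat for 176 and the highest for 154. Over the 9243 shared genes goat C was more than 2-fold above both other goats for 432 genes and more than 2-fold below both for 717, goat A for 500 and 389, and goat B for 43 and 228, against 26 to 200 genes in either direction for the cattle libraries.

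The goats differed among themselves by pathway, which is described here over all shared genes tested because Length does not enter within a species. Over all 9243 shared genes the median log2 ratio to the mean of the other 2 goats was -0.03 for goat C and 0.04 for goat A. How often each goat was the highest or lowest over all genes was not counted, so the counts of list members have no such share beside them. Goat C was the highest goat for all 9 genes of the interferon response, with a median of 1.1 on the log2 scale over the mean of goats A and B. IRF9, a part of the transcription complex that interferons activate, was at 101 and 118 CPM in goats A and B and at 396 CPM in goat C, and IRF7 was at 20.3, 15.4 and 82.7 CPM. Goat C was also the highest for 6 of 7 endothelial markers (median 1.32) and 4 of 5 markers of proliferating cells (median 1.29). STAB2, a scavenger receptor of liver sinusoids, was at 50.9, 60.4 and 180 CPM in goats A, B and C.

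Goat C was the lowest goat for all 7 plasma carriers and apolipoproteins (median -1.78), all 11 respiratory chain subunits (-1.11), 12 of 13 genes of fatty acid oxidation (-1.10), 11 of 13 complement genes (-1.36) and all 4 hepatocyte markers (-0.77). TF, the transferrin of plasma, was at 20548 and 19604 CPM in goats A and B and 3818 CPM in goat C, and IGFBP2 was at 966, 761 and 9.13 CPM. The sum of the 4 hepatocyte markers was 144340 and 142180 CPM in goats A and B and 38847 CPM in goat C. It includes 1 gene over 1.5-fold apart in Length, so it is not set against cattle. Over the 3 markers of like Length the sums were 10936, 11513 and 6688 CPM in goats A, B and C. Goat A was the highest goat for all 12 genes of cholesterol synthesis and uptake (median 1.17). SCD, the stearoyl-CoA desaturase, was at 79.3, 10.6 and 1.38 CPM in goats A, B and C. For genes such as these the mean of the goats lies between animals that differ more than 2-fold, and the part of cell composition, RNA quality or the state of single animals was not tested.

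**Figure D5:**
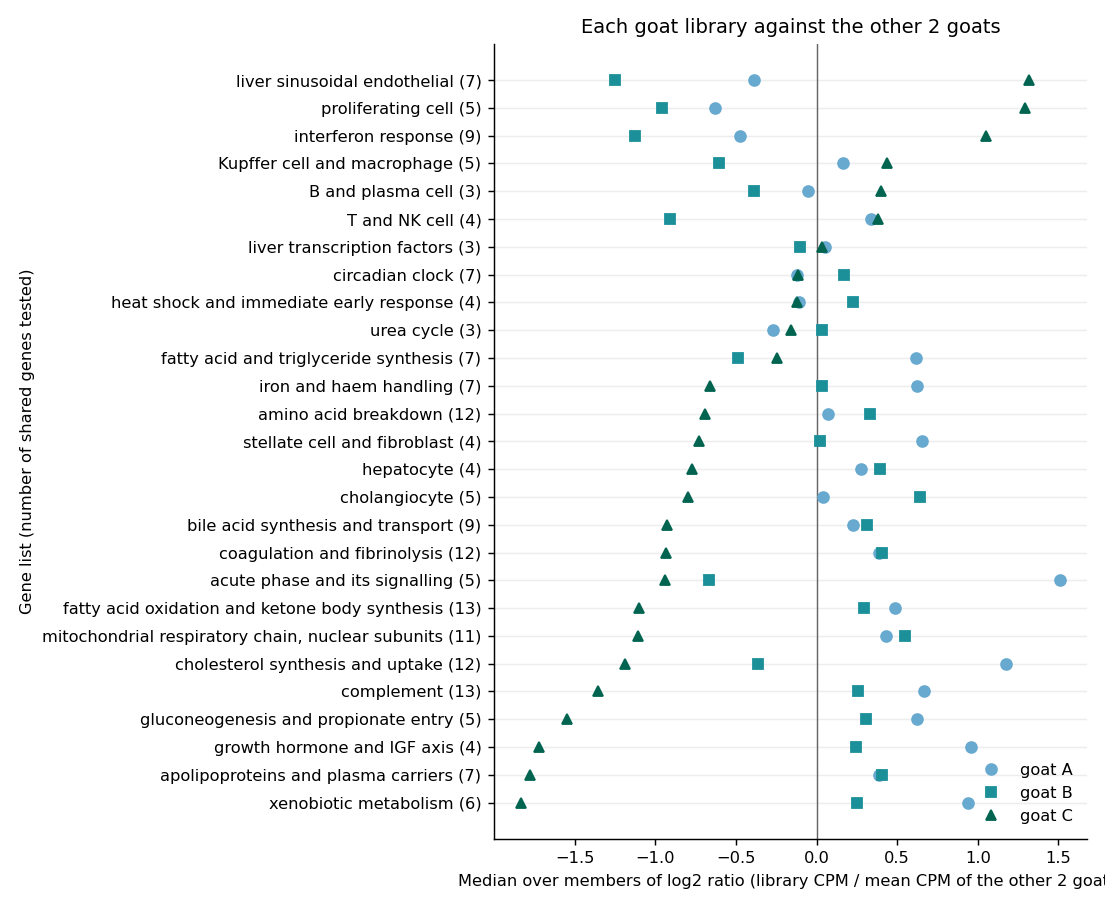
Median over list members of the log2 ratio of each goat library to the mean of the other 2 goats (0.25 CPM added), for lists with at least 3 shared genes tested, with the number of genes in parentheses. Goat C lies at the right for interferon, endothelial and proliferation genes and at the left for plasma proteins and metabolism, and goat A lies at the right for cholesterol synthesis.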

How the data were processed

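Liver mRNA, selected with oligo(dT) beads, was sequenced in 3 cattle and 3 goats. The authors trimmed the reads (Trimmomatic 0.39), aligned them with STAR 2.7.6 and deposited raw counts per gene from featureCounts, whole numbers beside the exon positions and Length of each gene. The positions are of ARS-UCD1.2 for cattle and ARS1 for goat. The strand and read-pair options are not given in the sources used here, so reads of overlapping genes cannot be separated. Groups and letters came from the sample titles.

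Genes were paired by internal exon lengths. On a simulated second annotation 10624 pairs were found for 12047 eligible genes and 10 were wrong. Symbols came from a RefSeq list of assembly ARS-UCD2.0 by matching spans, neighbour distances and order, for 8885 of 10992 pairs, and on simulated annotations 2055 of 2155 genes were named, 0 of them wrongly. The counts were fitted with edgeR 4.0.16 in R 4.3.3 (TMM factors, quasi-likelihood test, 6 libraries, CPM over 1 in at least 2 libraries). CPM are counts of shared genes divided by TMM-scaled library sizes. DESeq2 1.42.0 served as the other tool. With counts simulated for the 9243 genes of this comparison, 100 genes were changed 4-fold and 100 were changed 2-fold. Of these edgeR called 67 and 7, with 4 unchanged genes. DESeq2 called 90 and 26, with 22 unchanged genes. The part of changed genes that is called when many more genes differ, as in the libraries themselves, was not tested.

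Named genes were the 10 with the largest called difference in each direction (at least 10 counts in every library, a species mean not under 10 CPM, at most 10% exon overlap, species apart, with a symbol), the list members, up to 5 per goat library that rest on it and the genes of the extreme windows and rows. Some of these genes are not reported here. The members and lists were chosen with earlier results of these data known. The symbol families and the genes at 0 counts were chosen after the values were seen. Counting error at the depths given leaves a floor of 3 counts, or 0.08 to 0.22 CPM, per library.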

Additional observations from a re-analysis of the deposited data

How the results depend on the processing

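The number of called genes of like Length, 2419, stayed within 1.5 times under DESeq2 (2683), other size factors (2424 and 2440), other filters on low counts (2589 and 2118), other rules for shared genes (2235 and 2481), thinned libraries (2348), all 9 libraries (2323) and a Length limit of 2 (3533). The narrower Length limit gave 1465 calls of 3088 genes, 683 higher and 782 lower, because fewer genes were tested, and a test against a 1.5-fold change gave 744 higher genes. Without 1 library the calls ran from 1673 to 2664. Length as an offset moved the median log2 fold change to -0.21 and the split to 975 higher and 1453 lower. A criterion of less than 2 of 3 parts of the size raised the genes resting on a goat library from 10 to 96, 75 of them on goat C, and thinning gave 9. The third high window moved to a median of 1.28 with the Length offset. The highest window median was 1.14 for windows of 20 genes and 1.62 without exon-overlap genes. In the latter case the named highest window lost UHMK1, and its remaining genes had a median of 2.26. The lowest window median was -3.53 and -1.50 for windows of 5 and 20 genes. The cause of these shifts was not tested. A replicate block by letter left 2095 calls. The letters did not pair the samples (correlations of same letters -0.03, -0.14 and -0.02). Of 8346 alternative values for 425 described genes 583 lost the call, 56 gained it and 0 called values changed sign. CARMIL3 lost its call without goat B. The 6 genes named as resting on a goat library each lost theirs under the block and without each cattle library, and SP110 and ENPP5 also in thinned libraries, among other settings. Depth limits what can be said of genes below about 1 CPM in goats.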
